A study of Mus musculus with 6 samples.

Results

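The FGF family in lung-resident fibroblasts was followed through 10 genes, chosen by name: the secreted ligands Fgf1, Fgf2, Fgf7, Fgf10 and Fgf18, the intracellular factors Fgf12 and Fgf14, and the receptors Fgfr1, Fgfr2 and Fgfrl1. They were chosen with earlier results of these data known. All 10 are among the 14870 genes of the expression table, and 9 of them reached the level needed for testing. With Aurkb siRNA, Fgf7, Fgf10 and Fgf12 rose, Fgfr2 and Fgfrl1 fell, and Fgfr1, Fgf2, Fgf18 and Fgf1 did not pass the test. The cells were primary fibroblasts of TGFα mice, which carry a TGFα transgene that doxycycline (Dox) turns on through rtTA, itself driven in the airway epithelium by the Clara cell-specific promoter (CCSP). RNA was taken from 3 samples transfected with Aurkb stealth siRNA and 3 samples transfected with stealth control siRNA, 72 h after transfection, all from mice on Dox for 10 days and in a study that used mice of both sexes, 10 to 16 weeks old. All 6 samples therefore shared the transgene and the Dox, and no sample without them was compared. Nothing in the sources tells whether replicates are separate mice or separate cultures, and a p-value here therefore covers the spread of these 6 samples alone, which may be technical.

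FGF ligands bind tyrosine kinase receptors together with heparan sulfate, and the receptors signal through docking proteins to the RAS and MAP kinase cascade. In the developing lung, mesenchymal cells make FGF10 and FGF7, which act on the FGFR2b form of the receptor in the epithelium, and FGF10 drives branching of the airways. Fibroblasts themselves respond mainly through FGFR1, for which FGF2 is a well known mitogen. The counts are per gene, so the b and c splice forms of the receptors are not told apart here.

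The libraries held 27572833, 26443186 and 20820596 counted reads with Aurkb siRNA, and 29350227 to 30441954 with control siRNA. Read counts were recovered from the deposited values and divided by the authors' size factors, and these are called normalized counts. A gene was called higher or lower in limma when p, adjusted by Benjamini-Hochberg over the 13906 genes tested, was at most 0.05 and the change at least 1.5-fold. By this rule 645 of all tested genes (4.64%) were higher and 1067 (7.67%) were lower, and the median log2 fold change over all of them was 0.00. Aurkb itself had 37.4, 52.8 and 28.9 normalized counts with Aurkb siRNA, against 99.5, 107.8 and 133.6 with control siRNA. Rn45s, a ribosomal RNA gene, took 2.64%, 4.78% and 4.11% of the reads with Aurkb siRNA, and 4.31%, 3.14% and 2.595% with control siRNA. Among the listed fibroblast markers, Col3a1, a fibrillar collagen, had the highest mean in both groups. It was at 371822 ± 20461 normalized counts with Aurkb siRNA and 494678 ± 26172 with control siRNA (SD, n = 3 each). Of 12 fibroblast markers, 4 were called lower, namely Pdgfra, Dcn, Lum and Fap (log2 fold changes -0.93, -1.07, -1.81 and -0.96), and the other 8, Col3a1 among them, were not called. Markers of other cells were also present, and 9 of 11 endothelial, 5 of 8 tested pericyte and smooth muscle, 2 of 8 mesothelial, 2 of 8 tested hematopoietic and 1 of 4 tested epithelial markers were called lower. Another 4 hematopoietic markers and 1 mesothelial marker were called higher. Of these, S100a8, S100a9 and Mpo were low and reached the tested level only through the Aurkb siRNA libraries. Their means were 30.6, 19.99 and 59.9 normalized counts with Aurkb siRNA, against 4.25, 0.61 and 0.61 with control siRNA. The summed endothelial markers ran from 5478 to 6269 normalized counts with Aurkb siRNA and from 8512 to 10474 with control siRNA, and the marker with the highest mean was Eng, endoglin, with Aurkb siRNA and Cdh5, VE-cadherin, with control siRNA. The summed mesothelial markers ran from 16277 to 30234 with Aurkb siRNA, where Upk3b had the highest mean, and from 29542 to 35261 with control siRNA, where Lrrn4 had it. The summed pericyte and smooth muscle markers, led by Des, ran from 10967 to 17872 with Aurkb siRNA and from 11886 to 16064 with control siRNA. The summed hematopoietic markers, led by Cd14, ran from 1611 to 2222 with Aurkb siRNA and from 2369 to 3304 with control siRNA, with Adgre1, C1qa, C1qb, Cd3e and Cd79a not listed in the table. The summed epithelial markers ran from 49.7 to 72.9 with Aurkb siRNA, where Muc1 had the highest mean, and from 69.1 to 131.8 with control siRNA, where Cdh1 had it, with Sftpb, Sftpa1, Scgb1a1, Foxj1 and Krt5 not listed. Fewer cells of a type and less RNA per cell cannot be told apart in such bulk samples, and the part of these cells in the FGF results was not tested.

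Fgf10 (Entrez gene 14165, chr13:118714699-118792573 on GRCm38) encodes the branching factor that mesenchymal cells pass to the lung epithelium. Its level was 2326, 3045 and 2697 normalized counts in the Aurkb siRNA libraries, against 1385, 1782 and 1632 in the control siRNA libraries. Each Aurkb siRNA library lay above each control siRNA library. The means were 2689 ± 360.0 with Aurkb siRNA and 1600 ± 200.5 with control siRNA (SD, n = 3 each), a rise of 1.68-fold (log2 fold change 0.75, standard error, SE, 0.11, limma adjusted p = 8.91e-04). Libraries of the same replicate number differed by 0.75, 0.77 and 0.72 on the log2(normalized count + 1) scale, so the difference was almost the same size at every replicate number. Fgf10 kept its call without any 1 of the 6 libraries, at log2 fold changes of 0.65 to 0.85.

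Fgf7 (Entrez gene 14178, chr2:126034658-126091185) encodes keratinocyte growth factor, which uses the same b form of FGFR2 as FGF10. It was measured at 899, 1668 and 984 normalized counts with Aurkb siRNA, against 579, 826 and 664 with control siRNA. The groups did not overlap, and replicate 2 was the highest library in each group. Fgf7 rose 1.67-fold (log2 fold change 0.74, SE 0.22, limma adjusted p = 0.0234). The size of this rise was less sure than that of Fgf10, because it rested in part on Aurkb siRNA replicate 2. Without that library the change was below 1.5-fold, at 0.46 on the log2 scale. When control siRNA replicate 1 or 3 was left out, Fgf7 missed the p threshold (limma, adjusted p = 0.0704 and 0.0736, with 3.46e-05 to 0.0736 over its 15 alternatives). Within replicate numbers the log2 differences were 0.63, 1.01 and 0.57. In both groups Fgf7 and Fgf10 had the library order of the summed pericyte and smooth muscle markers. These were 10967, 17872 and 14680 normalized counts with Aurkb siRNA, and 11886, 16064 and 15845 with control siRNA. No other marker sum had this order in both groups. The part of these markers in Fgf7 and Fgf10 was not tested.

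The 2 secreted ligands that rose are shown here by the 250 bases before their start, the stretch where the general transcription machinery assembles, taken from RefSeq on GRCm38.p6 and both on the plus strand. RefSeq gave such a window for 8 of the 10 members. Capitals mark matches to any of 5 motifs on either strand, namely the TATA box as TATAAA, the CAAT box as CCAAT, the SP1 box as GGGCGG, the AP-1 element as TGACTCA and the E-box as CACGTG.
Fgf7, chr2:126034408-126034657: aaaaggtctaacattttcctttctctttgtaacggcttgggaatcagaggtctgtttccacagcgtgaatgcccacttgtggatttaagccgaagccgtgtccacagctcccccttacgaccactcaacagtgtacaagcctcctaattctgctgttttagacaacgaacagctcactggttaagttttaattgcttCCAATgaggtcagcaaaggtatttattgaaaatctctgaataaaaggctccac
Fgf10, chr13:118714449-118714698: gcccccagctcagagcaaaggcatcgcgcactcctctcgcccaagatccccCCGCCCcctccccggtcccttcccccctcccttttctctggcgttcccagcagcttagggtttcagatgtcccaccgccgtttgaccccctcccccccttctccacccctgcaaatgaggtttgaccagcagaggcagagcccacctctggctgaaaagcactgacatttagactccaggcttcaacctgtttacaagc

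The 2 windows differed in base composition, with 61.2% G and C in Fgf10 and 43.6% in Fgf7. Fgf7 held 1 match to CCAAT, which 33.8% of 32851 windows of this length hold, and Fgf10 held 1 match to GGGCGG on the other strand, which 32.7% of them hold. No motif of the 5 was matched in both, and a match is a description of the letters, not of a bound factor.

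Fgf18, a ligand of the FGF8 subfamily that takes part in lung and bone growth, was measured at 795, 516 and 639 normalized counts with Aurkb siRNA, against 529, 527 and 539 with control siRNA. The control siRNA libraries lay within a narrow band, and Aurkb siRNA replicate 2 fell below it while the other 2 lay above. The log2 fold change was 0.27 (95% interval -0.03 to 0.57), and Fgf18 did not pass (adjusted p = 0.142 from limma). The order of the Aurkb siRNA libraries in Fgf18 was that of their summed mesothelial markers. These were 30234, 16277 and 23047 normalized counts in replicates 1, 2 and 3. The endothelial sums (6269, 5478 and 5989) and epithelial sums (72.9, 49.7 and 65.7) had this order too. The pericyte and smooth muscle sums had the reverse, and the fibroblast and hematopoietic sums had other orders. In the control siRNA libraries the mesothelial sums were 35261, 30807 and 29542, while Fgf18 was highest in replicate 3. There only the endothelial sums, at 10235, 8512 and 10474, had the order of Fgf18. The part of these markers in Fgf18 was not tested.

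Fgf2, the basic fibroblast growth factor, was measured at 735, 929 and 942 normalized counts with Aurkb siRNA, against 890.2, 989.7 and 993.9 with control siRNA. The groups overlapped, and the log2 fold change was -0.15 (95% interval -0.37 to 0.07; adjusted p = 0.26 from limma). This interval leaves room for a small fall but not for a change of 1.5-fold.

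Fgf1, the acidic fibroblast growth factor, was the lowest secreted ligand of the set. It was measured at 20.1, 12.4 and 3.94 normalized counts with Aurkb siRNA, from 21, 12 and 3 reads, against 36.8, 22.1 and 19.2 with control siRNA, from 41, 24 and 21 reads. Aurkb siRNA replicate 1 lay within the range of the control siRNA libraries. Fgf1 had a log2 fold change of -1.22 (SE 0.51) and did not pass (adjusted p = 0.0888 from limma). With the replicate number as a block it was called lower (limma, adjusted p = 0.0124, with 0.0124 to 0.239 over its 15 alternatives), where 8.42% of all tested genes were called lower and 4.99% higher. It was also called lower without Aurkb siRNA replicate 1 (limma, adjusted p = 0.0246, log2 fold change -1.68). Without Aurkb siRNA replicate 3, which had the fewest reads of Fgf1, the log2 fold change was -0.63 (limma, adjusted p = 0.234).

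The remaining ligand-like members are intracellular. FGF12 and FGF14 belong to the fibroblast growth factor homologous factors, which are not secreted in the classical way and bind the tails of voltage-gated sodium channels. Fgf12 was measured at 109.4, 137.7 and 159.0 normalized counts with Aurkb siRNA, against 62.8, 102.3 and 93.3 with control siRNA. The groups did not overlap, though the lowest Aurkb siRNA library and the highest control siRNA library were close. Fgf12 rose 1.58-fold (log2 fold change 0.66, SE 0.21, limma adjusted p = 0.0324), just past the fold threshold. It lost its call without Aurkb siRNA replicate 2 or 3 or control siRNA replicate 1 or 3 (limma, adjusted p = 0.0692, 0.115, 0.0885 and 0.0567, with 0.00265 to 0.115 over its 15 alternatives), and on the log2(RPKM + 1) scale, where its change was 0.21. Fgf14 was under the level needed for testing, with 4, 1 and 1 reads in the Aurkb siRNA libraries, against 7, 6 and 12 in the control siRNA libraries. Without the minimum level it was called lower (limma, log2 fold change -1.55, adjusted p = 0.0412). Of 9 listed genes for the channels these factors bind, 2 were in the table. Scn3a had 3.84, 1.04 and 14.5 normalized counts with Aurkb siRNA, against 21.5, 11.98 and 11.9 with control siRNA, and did not pass (adjusted p = 0.0985 from limma). It reached the tested level only through the control siRNA libraries. The other, Scn8a, was not tested, with at most 7.68 normalized counts in a library.

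**Figure D1:**
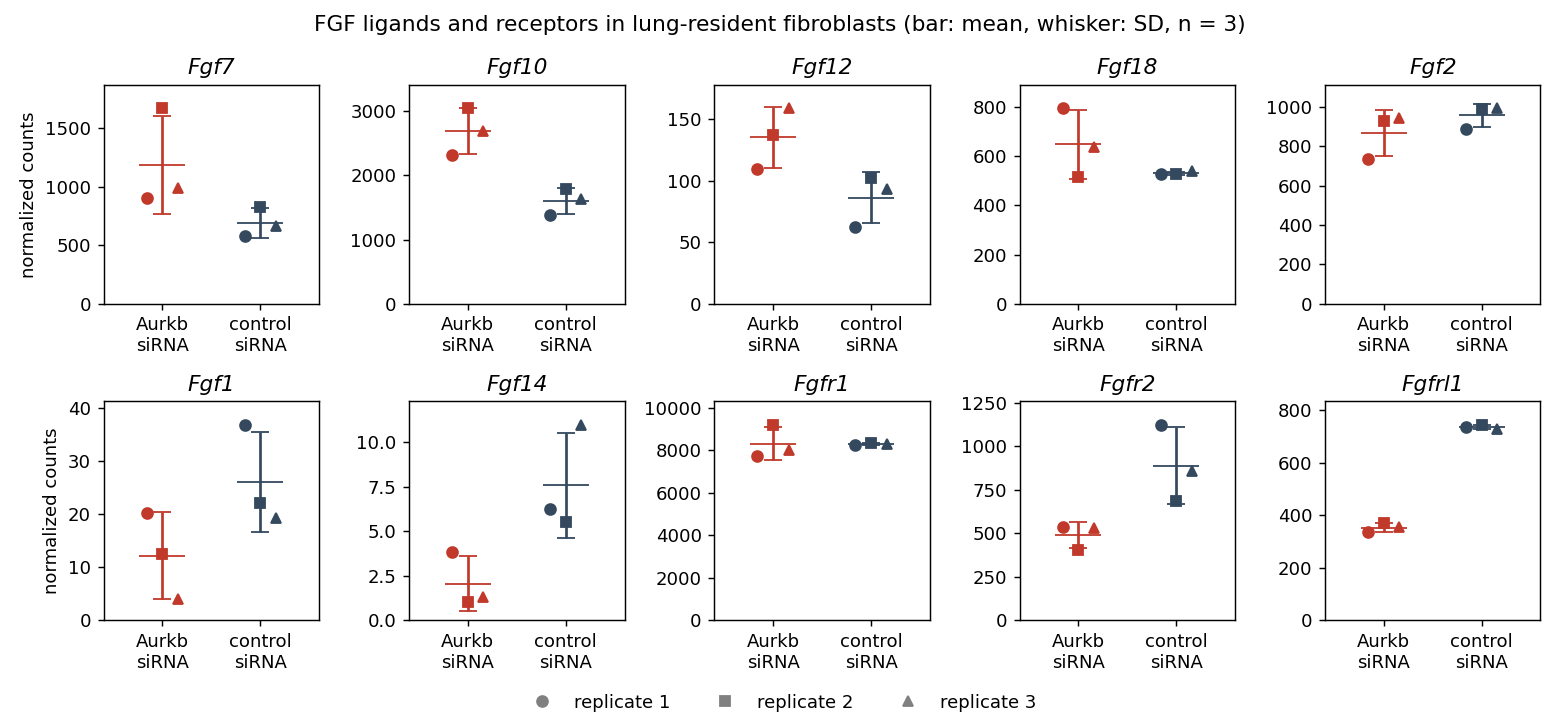
Normalized counts of the 10 FGF members (y axes start at 0 and differ between panels) in the Aurkb siRNA (left, red) and control siRNA (right, dark) libraries, with symbols for replicates, a bar for the mean and a whisker for the SD (n = 3). The groups are apart in Fgf7, Fgf10, Fgf12, Fgf14, Fgfr2 and Fgfrl1, and overlap in Fgf18, Fgf2, Fgf1 and Fgfr1.

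Among the receptors, Fgfr1 (Entrez gene 14182), the main FGF receptor of mesenchymal cells, was the highest and did not pass. It was measured at 7745, 9194 and 8008 normalized counts with Aurkb siRNA, against 8236, 8354 and 8278 with control siRNA. The Aurkb siRNA libraries lay on either side of the control siRNA libraries. The log2 fold change was 0.00 (95% interval -0.15 to 0.15, adjusted p = 0.995 from limma), an interval that holds no change of 1.5-fold.

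Fgfr2 (Entrez gene 14183, chr7:130162451-130266808) encodes the receptor whose b form binds FGF7 and FGF10. It was measured at 538, 406 and 531 normalized counts with Aurkb siRNA, against 1123, 686 and 858 with control siRNA. Each Aurkb siRNA library lay below each control siRNA library, and control siRNA replicate 1 stood above the other 2. The means were 492 ± 74.5 with Aurkb siRNA and 889 ± 221 with control siRNA (SD, n = 3 each), and the log2 fold change was -0.84 (SE 0.17, limma adjusted p = 0.00469). Fgfr2 kept its call without any 1 of the libraries, at log2 fold changes of -1.01 to -0.65. Within replicate numbers the log2 differences were -1.06, -0.76 and -0.69. In both groups the order of the libraries in Fgfr2 was that of their summed epithelial markers. These were 72.9, 49.7 and 65.7 normalized counts with Aurkb siRNA, and 131.8, 69.1 and 103.4 with control siRNA. No other marker sum had this order in both groups. The part of these markers in Fgfr2 was not tested.

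Fgfrl1 (Entrez gene 116701, chr5:108694229-108706950) encodes a receptor that binds FGFs but lacks the intracellular kinase domain. It had the smallest p of the members. It was measured at 335, 369.6 and 355 normalized counts with Aurkb siRNA, against 735, 745 and 730.3 with control siRNA. The spread within each group was small beside the gap between them. The means were 353 ± 17.4 with Aurkb siRNA and 737 ± 7.26 with control siRNA (SD, n = 3 each), and the log2 fold change was -1.06 (SE 0.07, limma adjusted p = 1.66e-05). Without any 1 library it ran from -1.09 to -1.02.

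**Figure D2:**
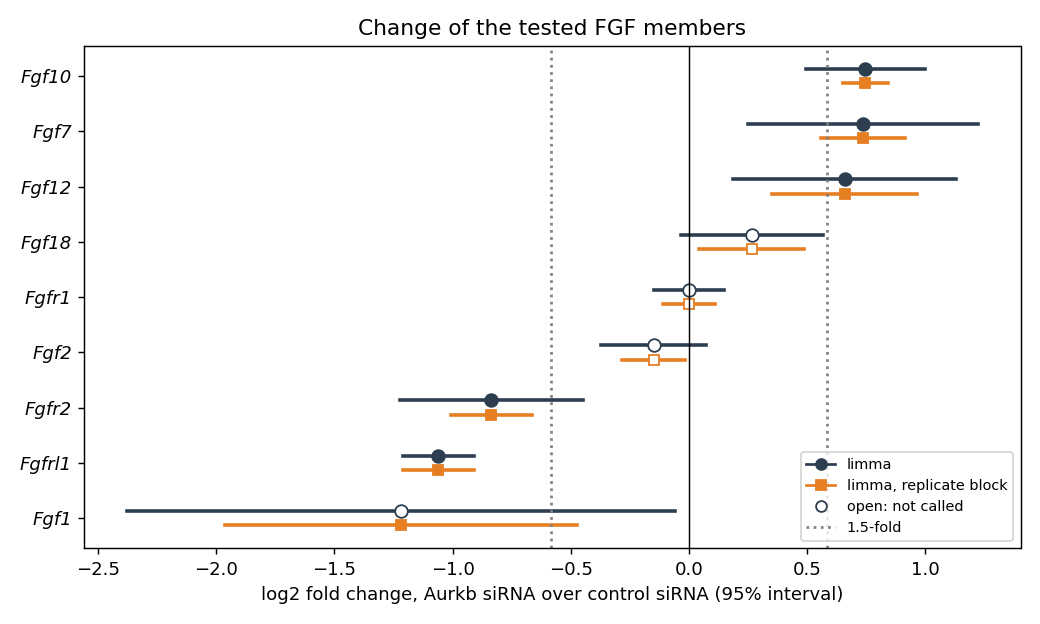
Log2 fold change (x axis, Aurkb siRNA over control siRNA) of the 9 tested members with 95% intervals from limma without (circles) and with (squares) the replicate number as a block, open where not called, with dotted lines at 1.5-fold. Fgf10 stands highest at 0.75 and Fgf1 lowest at -1.22, and Fgf1 is the member whose call differs between the fits.

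By count, 3 of the 9 tested members were called higher and 2 lower, against 4.64% and 7.67% of all tested genes. Because the members were chosen with earlier results of these data known, these counts are no test of the family. The median log2 fold change of the 9 was 0.00. Without Aurkb siRNA replicate 2, control siRNA replicate 1 or control siRNA replicate 3, Fgf10 was the 1 member called higher. Groups that did not overlap were less rare than calls, since 26% of all tested genes lay wholly above and 26.2% wholly below the control siRNA libraries. In an exact two-sided permutation test on 1 gene, groups apart give p = 0.1, and a design of 3 against 3 libraries can go no lower.

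The genes closest in pattern to each called member were found by the Euclidean distance between log2 values over the 6 libraries, after centring each gene on its mean. Fgf10 was closest to Hapln4 (distance 0.06) and Cenpw (0.09), and Fgfrl1 to Smim10l1 (0.09) and Tmem87b (0.10). Fgfr2 was closest to Osbpl3 (0.17) and Reep1 (0.21), Fgf7 to Hsph1 (0.28) and Smim3 (0.29), and Fgf12 to Cox4i2 (0.08) and Serpina12 (0.26). No called member was among the 2 genes closest to another. Cox4i2 and Serpina12 were themselves not called (adjusted p = 0.0565 and 0.141 from limma). The distance includes the group difference by which the members were called, so closeness here is no evidence of shared regulation.

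Levels were compared between genes per length, as RPKM, which the authors made from the reads of a gene, its length and the reads of the library. With Aurkb siRNA the order of mean RPKM was Fgfr1 (60.1), Fgf2 (46.1), Fgf10 (21.7), Fgf7 (16.3), Fgf18 (13.8), Fgfrl1 (4.91), Fgfr2 (3.40), Fgf12 (0.60), Fgf1 (0.12) and Fgf14 (0.022). With control siRNA it was Fgfr1 (59.7), Fgf2 (50.7), Fgf10 (12.9), Fgf18 (11.2), Fgfrl1 (10.2), Fgf7 (9.51), Fgfr2 (6.11), Fgf12 (0.38), Fgf1 (0.24) and Fgf14 (0.081). Neighbors whose library ranges overlapped were Fgf10 with Fgf7, Fgf7 with Fgf18, and Fgf1 with Fgf14 in the Aurkb siRNA libraries. In the control siRNA libraries they were Fgf10 with Fgf18, Fgfrl1 with Fgf7, and Fgf12 with Fgf1. The place of Fgf2 depends on the length given to it, since its reads and RPKM imply a gene length of about 695 bases, while its longest annotated 3' UTR alone has 5311 bases.

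The makeup of the receptors within a library was set out as shares of the summed RPKM of Fgfr1, Fgfr2, Fgfr3 and Fgfrl1. Fgfr1 took 86.1%, 88.5% and 86.1% of it with Aurkb siRNA, against 76.2%, 79.3% and 78.2% with control siRNA. Fgfrl1 took 7.16%, 6.84% and 7.34% with Aurkb siRNA, against 13.1%, 13.6% and 13.3% with control siRNA. The ratio of Fgfr1 to Fgfr2 was 15.1, 23.7 and 15.8 with Aurkb siRNA, against 7.67, 12.8 and 10.1 with control siRNA. The groups did not overlap in any of these 3 measures (exact two-sided permutation test, p = 0.1 each, and 0.1375 when adjusted over the 11 shares, ratios and sums computed). These measures are made from the member levels above and are not separate evidence of a change.

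Fgf7 and Fgf10 together took 35.8%, 44.1% and 35.7% of the summed RPKM of Fgf1, Fgf2, Fgf7, Fgf10 and Fgf18 with Aurkb siRNA, against 24.6%, 28.7% and 25.8% with control siRNA. With Fgf2 left out, because of its length, the share was 64.7%, 81.2% and 72.3% with Aurkb siRNA, against 62.4%, 69.4% and 65.9% with control siRNA, and the groups overlapped (exact two-sided permutation test, p = 0.3, adjusted p = 0.33). The ratio of Fgf10 to Fgf7 was 1.51, 1.07 and 1.601 with Aurkb siRNA, against 1.40, 1.26 and 1.44 with control siRNA, also with overlap (exact test, p = 0.9, adjusted p = 0.9).

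**Figure D3:**
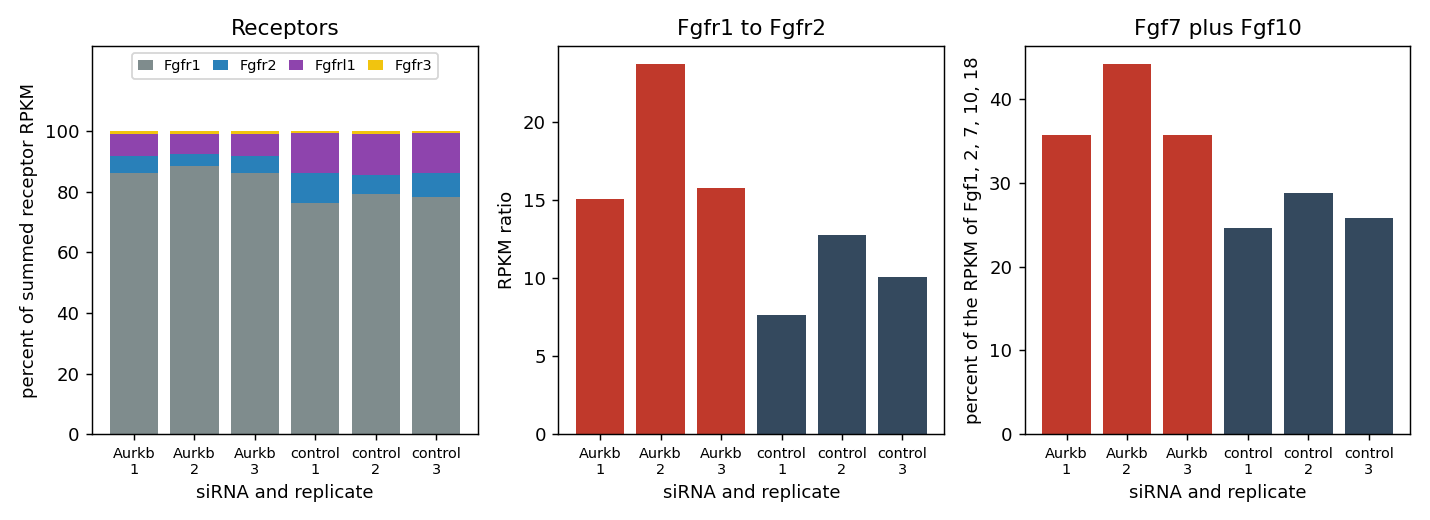
Percent of summed receptor RPKM taken by Fgfr1, Fgfr2, Fgfrl1 and Fgfr3 (left), the ratio of Fgfr1 to Fgfr2 RPKM (middle) and the percent of the RPKM of Fgf1, Fgf2, Fgf7, Fgf10 and Fgf18 taken by Fgf7 plus Fgf10 (right), 1 bar a library, Aurkb siRNA before control siRNA. The receptor ratio is 15.1 to 23.7 with Aurkb siRNA and 7.67 to 12.8 with control siRNA.

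The mRNA of some members holds AACGTGT or ACGTGTA, overlapping 7-base words that also lie in the Aurkb mRNA. The words were picked in earlier work on these same libraries as words that lower genes hold often, and the shares given below are partly a result of that choice and no independent evidence. No source used here gives the siRNA sequence. The sites are shown because both members that fell, and the lower relay genes described further on, hold such a word. Capitals mark the words, on the mRNA strand, with coordinates on GRCm38 and transcripts of GENCODE M21.
Fgfrl1, 3' UTR, chr5:108706431-108706459, plus strand: atgtttaAACGTGTAAACGTGTgcacaac
Fgfr2, coding sequence, chr7:130172895-130172923, minus strand: tggctgccagaAACGTGTtggtaacagaa
Fgf2, 3' UTR, chr3:37405678-37405706, plus strand: gaggcttatgcACGTGTAtattggaagtc
Aurkb, coding sequence, chr11:69048224-69048253, plus strand: gcaaatttggaAACGTGTActtggctcggg
Gab1, 3' UTR, chr8:80766139-80766167, minus strand: attggatttatAACGTGTAaataacccgg
Crkl, 3' UTR, chr16:17487140-17487168, plus strand: aaactcttttgACGTGTAtaacttaaaga
Nras, 3' UTR, chr3:103067292-103067320, plus strand: cccccttacagAACGTGTgagcttggttt
Map2k1, 3' UTR, chr9:64186197-64186225, minus strand: atgagcatcagAACGTGTAcgtcatggta

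Fgfrl1 holds 2 copies of AACGTGT side by side in a 3' UTR of 579 bases. Of the 30 tested genes with at least 2 copies in the 3' UTR, 16 were called lower and the other 14 were not called, with a median log2 fold change of -0.63 against -1.06 for Fgfrl1. In Fgfr2 the word lies in the coding sequence and is present in 4 of 4 transcripts searched, while its 3' UTR has none. Fgf2 holds ACGTGTA in its 3' UTR and did not pass. The longest 3' UTRs of the other 7 members and their searched transcripts hold neither word, which says only that these letters are not there. Over all tested genes with a 3' UTR searched, 219 of 1039 lower genes (21.1%) held a word there, against 19 of 594 higher genes (3.20%) and 589 of 11569 genes not called (5.09%). Before the 3' UTR a word was held by 14.9% of the lower, 6.23% of the higher and 7.82% of the other genes. Whether the words had a part in the fall of Fgfr2 or Fgfrl1 was not tested.

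The wider family and its signaling route were read from 7 lists of 77 genes, of which 57 were in the table and 53 were tested. Of these 53, 2 were called higher and 8 lower, against the 4.64% and 7.67% of all tested genes, and their median log2 fold change was -0.11. The lists too were chosen with earlier results of these data known, so these counts are no test of the pathway. Of the 2 higher genes, Fgf21 reached the tested level only through the Aurkb siRNA libraries. By list the median was 0.07 for other ligands, 0.15 for other receptors and binding proteins, -0.11 for adaptors and relay genes, -0.02 for feedback inhibitors, -0.32 for ETS factors and -0.13 for heparan sulfate enzymes. In the fit with the replicate block Scn3a was called lower as well.

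Of 15 other FGF ligands, 7 were in the table and 4 were tested. Fgf21, an endocrine FGF that is known as a stress-induced hormone, had 22.1, 12.4 and 17.1 normalized counts with Aurkb siRNA, against 2.69, 5.53 and 1.83 with control siRNA. It rose by a log2 fold change of 2.12 (SE 0.44, limma adjusted p = 0.00474), at a low level that passed the minimum only through the Aurkb siRNA libraries. Fgf9, a ligand of the lung mesothelium and epithelium in development, was at 240.5 ± 46.4 normalized counts with Aurkb siRNA and 254 ± 17.1 with control siRNA (SD, n = 3 each). Fgf11, another homologous factor, was at 218 ± 43.0 with Aurkb siRNA and 266 ± 49.8 with control siRNA, and Fgf16, a relative of Fgf9, at 19.9 ± 4.76 with Aurkb siRNA and 16.7 ± 3.95 with control siRNA. None of these 3 passed (adjusted p = 0.621, 0.212 and 0.552 from limma).

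Of 9 other receptors, coreceptors and binding proteins, 5 were tested. Fgfr3, a further receptor kinase, had 89.2, 89.0 and 94.6 normalized counts with Aurkb siRNA, against 81.6, 84.8 and 72.3 with control siRNA, and did not pass (log2 fold change 0.19, adjusted p = 0.274 from limma). Fgfbp3, a secreted protein that carries FGFs in the matrix, rose to 167.9, 131.5 and 131.4 with Aurkb siRNA, against 82.5, 103.2 and 65.0 with control siRNA (log2 fold change 0.79, adjusted p = 0.00890). Flrt1, a membrane protein that binds FGF receptors, fell to 32.6, 29.0 and 39.4 with Aurkb siRNA, against 66.3, 89.4 and 73.2 with control siRNA (log2 fold change -1.16, adjusted p = 0.0016). Its relatives Flrt2 and Flrt3 did not pass, with log2 fold changes of -0.40 and 0.15 (adjusted p = 0.0635 and 0.623 from limma). Fgfr4, Kl, Klb and Fgfbp1 were not listed in the table.

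Of 21 receptor adaptors and relay genes, 4 were called lower and the other 17 were not called, of which 12 passed the p threshold at a change under 1.5-fold. Gab1, a docking protein downstream of the receptors, fell to 638, 761 and 794 normalized counts with Aurkb siRNA, against 1498, 1645 and 1718 with control siRNA (log2 fold change -1.15, SE 0.09, limma adjusted p = 3.40e-05). The small GTPase gene Nras fell to 1161, 1402 and 1191 with Aurkb siRNA, against 2775, 2772 and 2642 with control siRNA (log2 fold change -1.13, adjusted p = 1.80e-05). In contrast, Hras had a log2 fold change of 0.37, under 1.5-fold (limma, adjusted p = 0.00440). Map2k1, the kinase MEK1, fell to 1920, 2775 and 2215 with Aurkb siRNA, against 4039, 4594 and 4245 with control siRNA (log2 fold change -0.91, adjusted p = 3.93e-04), while Map2k2, or MEK2, had a log2 fold change of 0.17. Crkl, an adaptor, fell to 794, 879.9 and 845 with Aurkb siRNA, against 1509.7, 1484 and 1570.4 with control siRNA (log2 fold change -0.86, adjusted p = 2.05e-05), while its relative Crk had one of 0.32. The 3' UTRs of all 4 lower genes hold at least 1 of the words shown above, and among the other 17 that of Ptpn11 does (log2 fold change -0.52). Over the 7 lists, 5 of the 8 lower genes held a word in the 3' UTR, the fifth being Ndst1, and Flrt1, Il17rd and Etv1 held none there. Of the 43 genes not called, 7 held one. These were Ptpn11, Scn3a, Hs6st1, Hs6st2, Spred1, Sulf1 and Etv5, at log2 fold changes of -0.52, -1.54, -0.37, -0.33, -0.14, -0.09 and -0.06. The part of the word in these falls was not tested.

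Of 8 tested feedback inhibitors, Il17rd, which dampens FGF signaling at the membrane, was called lower, at 517, 413 and 520.5 normalized counts with Aurkb siRNA, against 957, 718 and 865 with control siRNA (log2 fold change -0.80, adjusted p = 9.78e-04 from limma). Spry1, Spry2, Spry4 and Dusp6, genes that ERK signaling induces, did not pass, at log2 fold changes of 0.16, 0.07, -0.24 and -0.12. Of 3 ETS factors downstream of FGF, Etv1 fell to 479.7, 631 and 572 normalized counts with Aurkb siRNA, against 921, 941 and 868 with control siRNA (log2 fold change -0.71, adjusted p = 5.67e-04), whereas Etv4 and Etv5 were at -0.32 and -0.06 (adjusted p = 0.387 and 0.593). Of 11 enzymes that build or trim heparan sulfate, Ndst1, which starts its sulfation, fell to 2437, 2982 and 2757 normalized counts with Aurkb siRNA, against 4378, 4330 and 4679 with control siRNA (log2 fold change -0.72, adjusted p = 1.28e-04). A further 4 of the 11 passed the p threshold at under 1.5-fold, and Sulf1 and Sulf2, which remove sulfate groups, did not pass.

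**Figure D4:**
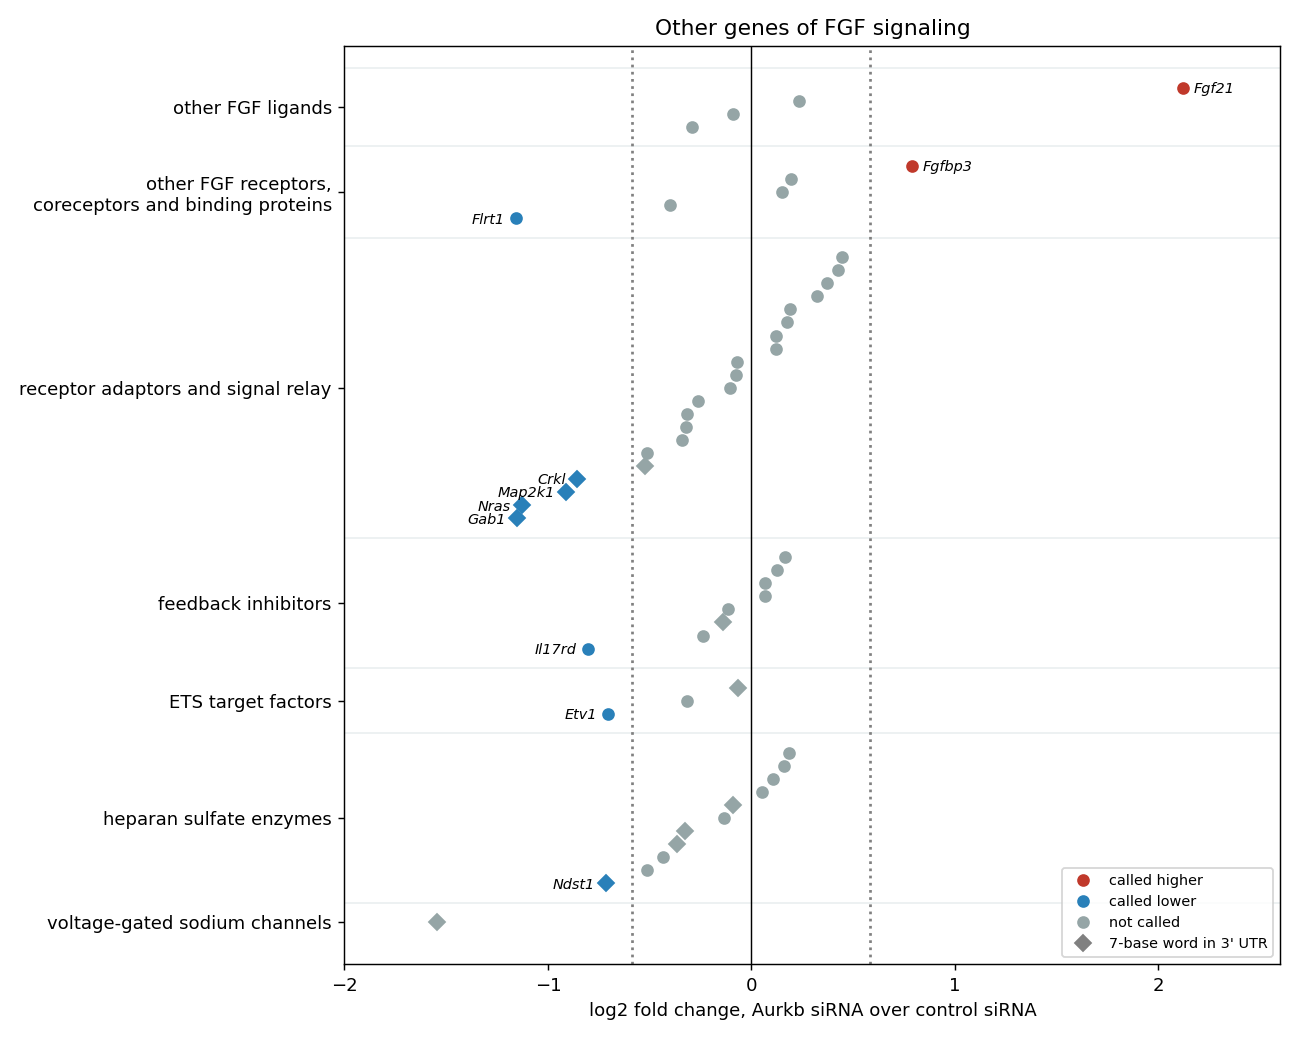
Log2 fold change (x axis, Aurkb siRNA over control siRNA) of the 53 tested genes of the 7 lists, 1 point a gene, colored by call, with diamonds for genes that hold AACGTGT or ACGTGTA in the 3' UTR and dotted lines at 1.5-fold. Gab1, Nras, Map2k1 and Crkl lie from -1.15 to -0.86, all as diamonds. Fgf21 lies at 2.12, a low gene that reached the tested level only through the Aurkb siRNA libraries.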

How the data were processed

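Per the labels, libraries were made from total RNA of lung-resident fibroblasts, and the submitters' notes name bcl2fastq, CASAVA 1.8, TopHat, DESeq and mm10. The counter, strand setting and annotation used were not given in the sources used here. Deposited by the authors were RPKM values of every library, and signal values that are group means of counts scaled by size factors. Their fold changes and p-values were not used. All RPKM values came back as whole reads (100% within 0.001) and were divided by the authors' size factors. Genes with a group mean of at least 10 were fitted as log2(normalized count + 1), which understates changes of low genes, with limma 3.58.1 (trend, R 4.3.3). Self-tests on simulated counts were run. Same-numbered libraries deviated together from their group means (correlations 0.395, 0.173 and 0.214, against -0.243 to 0.049 for unlike numbers). Taking deviations from the group mean itself lowers the unlike-numbered values when the same-numbered are above 0, so this contrast is partly forced. A replicate block was fitted beside, though what the numbers stand for is not known. Members, lists and words were chosen with earlier results of these data known. Named were all members, called list genes (up to 4 a list), family ligands and receptors at 10 or more, and the 2 nearest genes. Spry, Dusp6, Hras, Map2k2, Crk, Ptpn11, Spred1, Etv4, Etv5, Hs6st1, Hs6st2, Sulf1 and Sulf2 were named after their values were seen. Tables used Python 3.11.15.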

Additional observations from a re-analysis of the deposited data

How the results depend on the processing

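The alternatives were pseudocounts of 0.5 and 5, no minimum level, TMM and quantile scaling, voom, log2(RPKM + 1), no fold minimum, the replicate block and leaving out each library. Without 1 library, 1 to 3 members were called higher and 2 to 3 lower, and the log2 fold change of Fgfr1 moved between -0.074 and 0.0499, on either side of 0 and never called. On log2(RPKM + 1), 0 pathway genes were higher, and 310 genes of all were higher and 535 lower. With no fold minimum, 8 pathway genes were higher and 19 lower, and 2711 and 2850 of all. The replicate block left 3 members higher and 3 lower, changed the calls of Fgf1 and Scn3a, and changed no other call of a member or pathway gene. The planned tests with edgeR and DESeq2 were not run, because a check of the deposited unit, RPKM, did not accept them. The recovered reads were whole, and voom was run on them. Fgf1 and Fgf14 rest on few reads, which limits what can be said of them.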
